A study of Mus musculus with 5 samples.

Results

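Chromatin contacts across the Shh locus were compared between limb bud and body of the E11.5 mouse embryo. The comparison used 3 of the 5 libraries of the series, namely 2 replicate libraries of limb buds and 1 library of body, and the head libraries were not used. All embryos were of the CD1 strain, and the labels give no engineered allele or treatment. Limb material was whole fore- and hindlimb buds, so cells that express Shh at the posterior margin were a minority mixed with the rest of the bud, and body was the embryo with its limbs and head removed, a mixture of tissues that includes other places of Shh expression. Contacts were measured by 5C (chromosome conformation capture carbon copy), in which fixed chromatin is cut with HindIII, ligated, and read with forward and reverse primers placed on chosen fragments. Of the 33306 primer pairs in each library, 31328 joined a forward and a reverse fragment that both lay in the Shh region of chromosome 5 (mm9), from 176 forward and 178 reverse fragments, and these are the pairs described here. A contact averaged over a mixed tissue cannot tell a contact made in fewer cells from a weaker contact made in more of them. Body was a single library, so the spread between body samples is unknown, and a difference is described by whether both limb replicates lay on the same side of body.

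Shh encodes a secreted morphogen that patterns the limb from the zone of polarizing activity, a group of mesenchymal cells at the posterior edge of the bud. In the limb its transcription depends on the ZRS, an enhancer that lies far from Shh inside an intron of Lmbr1, whereas SBE4, in the gene desert between them, is an enhancer active in the forebrain. Such enhancers reach their genes within topologically associating domains, stretches of chromatin that contact themselves more than their neighbours. The locus was divided into 3 domains, counted in windows of 28 kb: a domain 3′ of Shh with Insig1, En2, Cnpy1 and Rbm33 (16 windows), the Shh domain from Shh to the ZRS with Rnf32 and most of Lmbr1 (33 windows), and a domain beyond Lmbr1 with Nom1, Mnx1 and Ube3c (12 windows).

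The limb libraries held 675954 (replicate 1) and 1714491 reads (replicate 2) and the body library 1056071. Each count was divided by its library total and multiplied by 1000, and this value is called the interaction frequency. A primer pair with 0 reads was therefore only bounded, at 3 reads or an interaction frequency of 0.00444, 0.00175 and 0.00284 in the same order. No read was found for 40.7%, 34.0% and 25.9% of the primer pairs of the region, respectively.

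The libraries differed first in which kinds of ligation product they held. Pairs of neighbouring fragments that share 1 HindIII site (244 primer pairs) took 19.8% and 21.8% of reads in the limb replicates but 38.6% in body (Wilson 95% intervals of 19.7 to 19.9, 21.8 to 21.9 and 38.5 to 38.7, which cover counting error only). The genome sequence held the site at the junction in 244 of these 244 pairs. The primer sequences were not used, so which fragment ends these primers read, and whether uncut sites add to these counts, was not tested. A junction here is the place in the genome where both fragments meet, not a sequenced ligation product. The junctions of the most-read such pair in body and of the pair nearest to the start of Shh are shown as examples, 5′ to 3′ on the plus strand of NCBIM37 (mm9), with the HindIII site in capitals.
Most-read junction in body, chr5:29709679-29709732: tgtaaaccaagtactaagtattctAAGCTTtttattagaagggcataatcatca
Junction nearest to Shh, chr5:28799272-28799325: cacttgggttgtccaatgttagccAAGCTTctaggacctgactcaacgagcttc
The primer pair at the first junction had an interaction frequency of 2.78 and 3.44 in the limb replicates and of 6.2 in body. The pair at the second, 5.66 kb from the start of Shh, had 2.04 and 2.05 in limb and 3.96 in body. Both limb replicates were below body in 221 of the 244 pairs and above it in 2. The mean over the 244 pairs was 0.810, 0.894 and 1.58, so body was 1.86-fold above the limb mean. The excess was similar in size in each domain, at 1.87-fold in the domain 3′ of Shh, 1.88-fold in the Shh domain and 1.79-fold beyond Lmbr1.

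At the other end of the scale stood 9 isolated contacts, that is, single primer pairs with fragments 84 kb or more apart that, in 1 or more of the 3 libraries, held 100 reads or more and 20 times the count of any pair made with the nearest 2 primers to either side. Because read counts chose them, their values are a description. They took 12.7% and 7.48% of reads in the limb replicates and 0.135% in body, and the interaction frequency in a limb replicate was 23.2- to 812-fold that in body. Judged in 1 library at a time, the first limb replicate had 7 of them, the second 9, and body 0.

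The isolated contact with the most reads joined a fragment 1.13 kb from Mnx1, a homeobox gene of motor neurons, to the fragment that holds the 5′ end of Lmbr1, 102 kb away. It had 29645 and 66035 reads in the limb replicates and 668 in body. The next joined a fragment 16.3 kb from Shh to a point in the gene desert 402 kb away, with 33102 and 34778 reads in limb and 375 in body. The same 2 contacts held rank 1 and 2 among the primer pairs of the region in each limb replicate, and ranks 258 and 391 in body. Ligation joins the fragments of a contact at their ends, and the ends of these 4 fragments are given here from the HindIII site (capitals) for 44 bases into the fragment, 5′ to 3′ on the plus strand of NCBIM37.
Fragment near Mnx1, left end, between genes, chr5:29806186-29806235: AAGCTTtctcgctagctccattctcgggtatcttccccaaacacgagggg
Fragment near Mnx1, right end, between genes, chr5:29807403-29807452: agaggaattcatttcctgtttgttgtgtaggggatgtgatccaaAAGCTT
Fragment at the 5′ end of Lmbr1, left end, in an intron, chr5:29703901-29703950: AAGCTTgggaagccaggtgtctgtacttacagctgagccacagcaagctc
Fragment at the 5′ end of Lmbr1, right end, upstream of Lmbr1 in an exon of 4632411P08Rik, chr5:29705244-29705293: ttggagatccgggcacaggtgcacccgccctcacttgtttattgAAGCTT
Fragment near Shh, left end, between genes, chr5:28763976-28764025: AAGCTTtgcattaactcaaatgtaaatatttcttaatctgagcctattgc
Fragment near Shh, right end, between genes, chr5:28767032-28767081: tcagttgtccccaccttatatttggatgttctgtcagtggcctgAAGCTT
Fragment in the gene desert, left end, in an intron of 9530036O11Rik, chr5:29166824-29166873: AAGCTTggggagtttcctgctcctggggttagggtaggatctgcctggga
Fragment in the gene desert, right end, in the same intron, chr5:29168420-29168469: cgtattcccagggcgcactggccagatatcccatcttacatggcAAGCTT
One more isolated contact, between chr5:28884804-28887360 and chr5:29253038-29259186 in the gene desert, had 11026, 8815 and 155 reads. The remaining 6 had 188 to 5111 reads in the first limb replicate, 922 to 5672 in the second and 1 to 64 in body. Of the 9, 4 lay within a domain and 5 between domains.

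On the mean over all distances, limb had more contact between domains than body, and within domains a little less. Between domains the mean interaction frequency was 0.00917 and 0.00926 in limb and 0.00529 in body, a limb mean of 0.00921 ± 6.29e-05 (SD, n = 2) that was 1.74-fold body. Within domains it was 0.0644 and 0.0649 in limb and 0.0709 in body. Reads that crossed a domain edge made up 17.3% and 17.5% of the limb libraries and 10.0% of body. Both limb replicates were above body in all 3 kinds of pairs between domains.

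**Figure D1:**
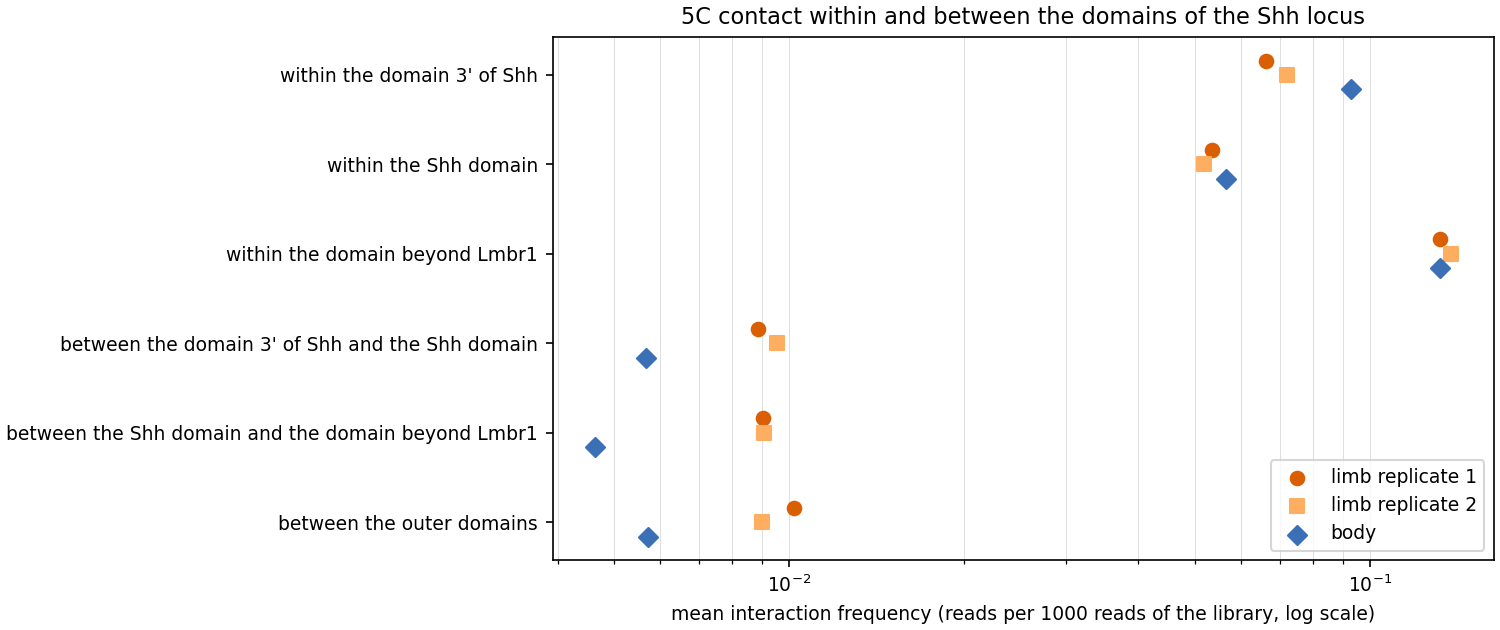
Mean interaction frequency (log axis) in the 6 kinds of primer pairs within and between the 3 domains, 1 point for each library, with no error bars. The limb points lie to the right of body in the 3 rows between domains, and to its left in the domain 3′ of Shh and the Shh domain.

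The increase was largest between the Shh domain and the domain beyond Lmbr1, where the mean was 0.00904 and 0.00905 in limb and 0.00465 in body, or 1.95-fold. Between the domain 3′ of Shh and the Shh domain it was 0.00886, 0.00953 and 0.00567, or 1.62-fold. Between the outer domains it was 0.0102, 0.00900 and 0.00573, or 1.68-fold. Within the domain 3′ of Shh both limb replicates were lower, at 0.0662 and 0.0720 against 0.0928. Within the Shh domain they were lower by less, at 0.0535 and 0.0520 against 0.0566. Without isolated contacts and adjacent pairs, the first of these was lower only under 56 kb (0.121 and 0.127 against 0.142). The Shh domain then had replicates on either side of body under 56 kb. In every longer distance bin (defined below) both replicates were above body in both domains. The domain 3′ of Shh had 0.0444 and 0.0454 against 0.0429 in its nearest such bin. Adjacent reads stayed in the library totals, and whether these directions hold without them was not tested. Within the domain beyond Lmbr1 the replicates fell on either side of body (0.132, 0.138 and 0.132), and both were below it by log2 values of -0.19 and -0.14 once isolated contacts were left out. When each value was divided by the mean of all pairs at the same separation in its own library, the difference between domains shrank to a log2 value of 0.077 and that within domains to -0.070. Isolated contacts were kept in, and the blocks then differed in direction. Limb was above body within the domain beyond Lmbr1 (0.40 and 0.44) and between it and the Shh domain (0.26 and 0.23). It was below within the domain 3′ of Shh (-0.21 and -0.24), within the Shh domain (-0.12 and -0.13) and between the outer domains (-0.023 and -0.072). The median over primer pairs turned the difference between domains, to a log2 value of -2.70, and that within domains, to 0.43. Between domains the medians lay under the bound of 3 reads, so the size of that ratio is uncertain. Between the Shh domain and the domain beyond Lmbr1, for example, they were 0 and 0.000583 in limb and 0.00189 in body.

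Distances between fragment midpoints were binned in lengths of the 28-kb window, each bin spanning a doubling from 56 kb (2 lengths) up to 32 lengths. Limb was below body under 56 kb and above it in the 5 longer bins, although at 4 to 8 lengths the replicates fell on either side of body when adjacent fragments were left out (log2 values of -0.11 and 0.04). Under 56 kb the mean interaction frequency was 0.204 and 0.221 in limb and 0.316 in body, so body was 1.49-fold higher. At 2 to 4 lengths it was 0.0602, 0.0607 and 0.0345, and at 32 lengths and over 0.00948, 0.00935 and 0.00534, or 1.76-fold higher in limb. The bin of 2 to 4 lengths holds the isolated contact near Mnx1. Without isolated contacts its values were 0.0438, 0.0447 and 0.0342. With adjacent fragments left out as well they were 0.0566, 0.0585 and 0.0558, so little of the increase in this bin was left. With isolated contacts kept in, the bin of 8 to 16 lengths differed most, at 0.0256, 0.0201 and 0.0108. It holds 3 of the isolated contacts within a domain. In limb 1% of its primer pairs took 47% and 28.6% of its reads, against 9.22% in body. Without isolated contacts this bin had 0.0171, 0.0171 and 0.0107, or 1.60-fold. That was less than at 16 to 32 lengths (1.74-fold) and at 32 lengths and over (1.76-fold). Among pairs that are not adjacent, the mean in both limb replicates was still lower under 28 kb (0.50 and 0.556 against 0.804 under 5 kb). At 20 to 28 kb the gap was small (0.0998 and 0.108 against 0.111), and the medians ran the other way (0.0828 and 0.0913 against 0.0772). At 28 to 56 kb the mean was higher in both limb replicates (0.0731 and 0.0703 against 0.0626). That difference turned when adjacent pairs were also left out of the library totals, to 0.0910 and 0.0900 in limb against 0.102 in body.

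The higher mean at long range did not come from more primer pairs being read. At 16 to 32 lengths, 48.6% and 56.7% of primer pairs had a read in limb and 66.6% in body, although limb replicate 2 was the deepest of the 3 libraries. At an equal depth of 675954 reads the shares were 48.6%, 52.4% and 62.2%. Over the pairs that were read, isolated contacts aside, the mean interaction frequency was 0.0193 and 0.0171 in limb and 0.00914 in body. The median over all pairs therefore ran the other way, at 0 and 0.00117 in limb and 0.00284 in body. At 32 lengths and over the same held, with 45.8%, 52.6% and 62.9% of pairs read. Limb thus had its long-range reads on fewer primer pairs, each with more reads.

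**Figure D2:**
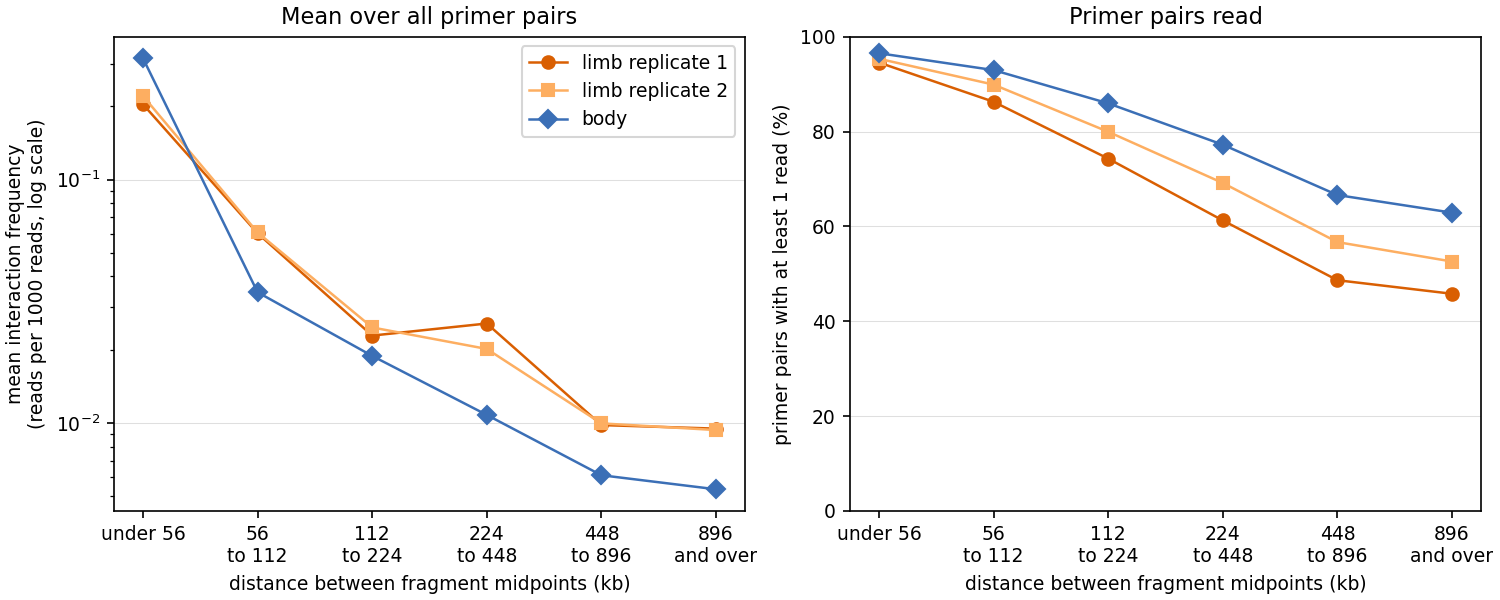
Left, mean interaction frequency (log axis) over all primer pairs in 6 bins of distance (kb); right, the percentage of primer pairs with at least 1 read in the same bins; 1 line for each library, with no error bars. Limb lies under body in the first bin and above it in the others, while fewer primer pairs were read in limb in every bin.

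With isolated contacts left out, the step between domains at a matched distance was smaller in limb than in body. Pairs in the same domain at 8 to 16 lengths had 0.0234 and 0.0235 in limb and 0.0158 in body, and pairs across a domain edge had 0.0102, 0.010 and 0.00515. The ratio of same-domain to cross-domain contact was thus 2.30 and 2.34 in limb and 3.06 in body. It was 1.28 and 1.29 against 1.98 at 2 to 4 lengths, 1.96 and 1.90 against 2.48 at 4 to 8 lengths, and 2.32 and 2.38 against 2.94 at 16 to 32 lengths. Both limb replicates were then below body in each of these 4 bins. With isolated contacts kept in, the ratio was above body in both replicates at 8 to 16 lengths (4.59 and 3.23 against 3.09) and on either side of it at 2 to 4 lengths (2.06 and 1.93 against 2.00), and the other 2 bins kept their direction (1.96 and 1.90 against 2.48, and 2.17 and 2.28 against 2.94). With the adjacent pairs left out of the totals as well, which leaves these ratios as they are, same-domain pairs in limb were within log2 values of -0.01 to 0.29 of body over the 4 bins, and cross-domain pairs were higher by 0.43 to 0.65.

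Among 1881 pairs of 28-kb windows with at least 10 reads, 240 were at least 2-fold higher in both limb replicates than in body (12.8% of those tested) and 23 were at least 2-fold lower in both (1.22%). Of the pairs between the Shh domain and the domain beyond Lmbr1, 99 of 394 were higher (25.1%), and of those between the domain 3′ of Shh and the Shh domain, 95 of 525 (18.1%). The pairs between the outer domains, 23 of 192 (12%), were near the share over all pairs. Within the Shh domain it was 18 of 556, in the domain 3′ of Shh 1 of 136, and beyond Lmbr1 4 of 78. Of the 23 lower pairs, 9 were a window with itself. With isolated contacts and adjacent pairs out, 158 pairs were higher and 29 lower of 1878, and the first 2 blocks kept the highest shares, at 16.5% and 12.4%.

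**Figure D3:**
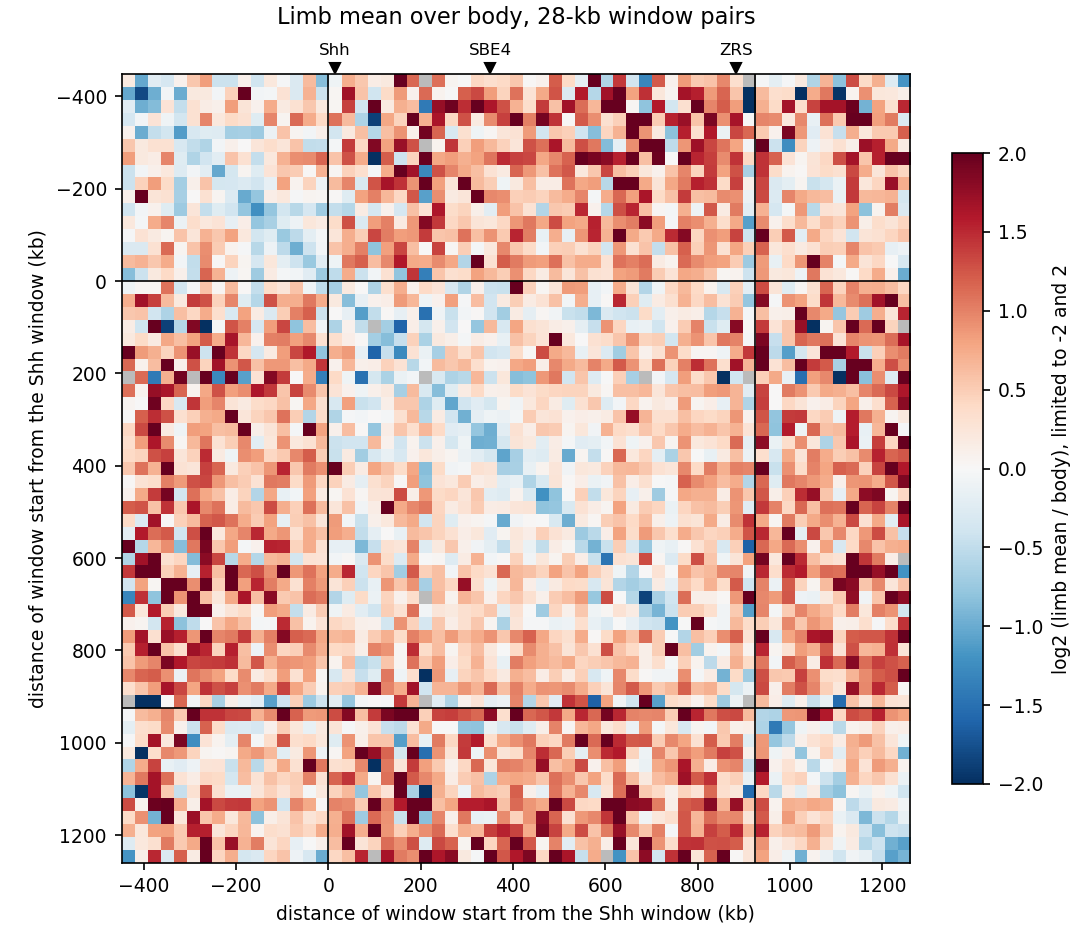
Log2 ratio of the limb mean over body for every pair of 28-kb windows with at least 10 reads (grey where fewer), limited to -2 and 2, with axes in kb from the Shh window and black lines at the domain edges. Blue lies along the diagonal, and red is densest in the rectangles between domains, where 25.1% of pairs between the Shh domain and the domain beyond Lmbr1 were at least 2-fold higher in both limb replicates.

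The same window pairs were tested by quasi-likelihood in edgeR, adjusted by Benjamini-Hochberg, in a fit in which the spread came from the 2 limb replicates alone (1 residual degree of freedom). It called 93 of 1874 window pairs (4.96%) at an adjusted p of 0.05, 18 higher in limb (0.961%) and 75 lower (4%). The split depends on the scaling, since scaling to library totals instead of TMM gave 27 higher and 26 lower, and DESeq2 gave 34 and 101. TMM set the median log2 fold change over all pairs at 0.06 and library totals at 0.45, and a direction below is relative to that. Both scalings shared 18 higher and 26 lower pairs. The lower calls were at short range, with 48 of the 58 windows paired with themselves, 26 of the 60 neighbouring pairs and 1 pair 2 to 3 windows apart. The higher calls were all 2 or more windows apart, 7 of them between the Shh domain and the domain beyond Lmbr1. They included the window pairs of all 9 isolated contacts, which read counts of the same libraries had chosen. Most of the rest, and most of those 7, joined the window with the 5′ end of Lmbr1. With isolated contacts left out, 11 higher pairs were called.

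Shh (chr5:28783355-28793641) and the ZRS were represented by the windows chr5:28765087-28793086 and chr5:29633087-29661086, 868 kb apart. Their interaction frequency over 22 primer pairs was 0.0523 and 0.0466 in limb and 0.0357 in body, from 778, 1759 and 829 reads. In each library 21 of the 22 pairs had a read. Both limb replicates were thus 1.47- and 1.31-fold body on library totals. The difference did not pass edgeR's test, with a log2 fold change of 0.09 and an adjusted p of 0.933, which does not show that the contact was equal. Shh and SBE4 (window chr5:29101087-29129086, 336 kb from Shh) had 0.0150, 0.0167 and 0.0214, below body in both replicates, with a log2 fold change of -0.82 and an adjusted p of 0.411. SBE4 and the ZRS, 532 kb apart, had 0.0223, 0.0192 and 0.00951, at 2.35- and 2.02-fold body, with a log2 fold change of 0.74 and an adjusted p of 0.420 in edgeR's test.

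Seen from each window, the ZRS stood near the top of the locus and Shh and SBE4 in its lower part. From the ZRS window, both limb replicates were above body towards 51 of the 56 windows that lay 3 or more windows away, and both were below towards 0. From the Shh window it was 26 of 56 above and 13 below, and from the SBE4 window 25 above and 10 below. Over all 61 windows the share with both above ran from 25.5% to 94.6% with a median of 64.3%, and the ZRS window (91.1%) ranked 3, Shh (46.4%) 49 and SBE4 (44.6%) 53. The window with the highest share held the start of Rnf32, a RING finger gene (53 of 56). With isolated contacts and adjacent pairs out, the ZRS, Shh and SBE4 windows ranked 2, 45 and 48, the Rnf32 window ranked 3 (48 of 56), and the window with the 5′ end of Lmbr1 was first (52 of 56).

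The window next to the ZRS window on the side of the Lmbr1 promoter differed from it. There, both limb replicates were above body towards 16 of 55 windows and below towards 16, with mean interaction frequencies of 0.0183 and 0.0179 in limb and 0.0182 in body. The window after that, which holds the 5′ end of Lmbr1, was again high, with 52 of 56 above. These 3 neighbouring windows over 1 gene thus ranged from 29.1% to 92.9%. The window between the other 2 held no forward fragment and was read by reverse fragments only. Windows differ in the number of fragments that read them, and neither these shares nor the ranks were adjusted for it. Single fragments varied likewise: over the fragments with at least 50 reads at 56 kb and over, isolated contacts aside, the SD of the log2 ratio was 0.40 (forward) and 0.22 (reverse) between the limb replicates, and 0.50 to 0.58 and 0.47 to 0.49 between a limb replicate and body.

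**Figure D4:**
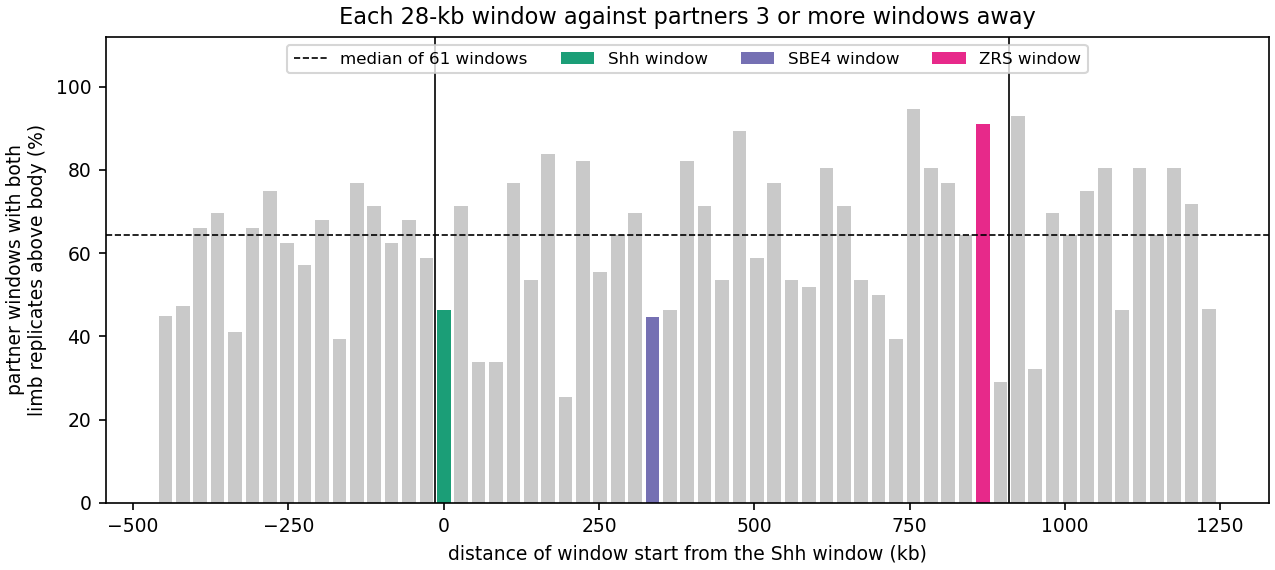
For each of the 61 windows, the percentage of partner windows 3 or more windows away at which both limb replicates were above body, with the Shh, SBE4 and ZRS windows coloured, vertical lines at the domain edges and a dashed line at the median of 64.3%. The ZRS bar stands at 91.1% and the Shh and SBE4 bars at 46.4% and 44.6%, and neighbouring windows differ widely.

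Of the 10 genes, 9 had higher mean contact in both limb replicates than in body with fragments at least 56 kb away, but relative to the mean at the same separation the limb mean of 5 of them (Insig1, Cnpy1, Rbm33, Shh and Nom1) was below body, by log2 values of -0.31 to -0.029. Over all fragments with at least 50 reads at this distance, isolated contacts aside, both limb replicates were above body in 144 of 167 forward and 164 of 178 reverse fragments, so the count for the genes was near the share over the locus. Shh, read by 2 fragments, had 0.0168 and 0.0158 in limb and 0.0110 in body, or 1.49-fold. Its increase was largest towards the domain beyond Lmbr1 (0.0142, 0.0137 and 0.00595), against 0.0117, 0.0135 and 0.00907 towards the domain 3′ of Shh. Within its own domain Shh had 0.0204, 0.0178 and 0.0140. Shh differed from the other genes in coverage, since 81.5% and 83.3% of its primer pairs were read in limb and 79.7% in body.

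Lmbr1 (chr5:29556354-29704930), which encodes a membrane protein and hosts the ZRS, had 0.0239 and 0.0246 in limb and 0.0106 in body over 35 fragments. The isolated contact near Mnx1 lies in this mean, and without isolated contacts it was 0.0180, 0.0186 and 0.0105. Rnf32 had 0.0143, 0.0150 and 0.00869 over 9 fragments. Towards the domain 3′ of Shh, contacts of Rnf32 were higher by log2 values of 0.93 and 0.81, isolated contacts and adjacent pairs left out, and towards its own domain by 0.40 and 0.46.

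Beyond Lmbr1, Ube3c, a ubiquitin ligase gene, had 0.0124, 0.0132 and 0.00729 over 28 fragments, or 1.76-fold. Nom1, which encodes a nucleolar protein, had 0.0120, 0.0136 and 0.00972 over 7 fragments, or 1.32-fold. Mnx1 was read by 1 fragment at a low level, 0.00625, 0.00421 and 0.00156, and had the largest ratio of the 10 genes at 3.35-fold. That fragment is not the one of the isolated contact.

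In the domain 3′ of Shh, Rbm33, an RNA-binding protein gene, had 0.0140, 0.0138 and 0.00899 over 27 fragments, or 1.55-fold. Cnpy1, of the canopy family of FGF signalling regulators, had 0.0118, 0.0127 and 0.00921 over 14 fragments, or 1.33-fold. Insig1, a regulator of sterol synthesis, had 0.0222, 0.0230 and 0.0203 over 1 fragment, or 1.11-fold, and both limb replicates fell below body when isolated contacts and adjacent pairs were left out. En2, a homeobox gene of the midbrain and hindbrain, was the exception among the 10, with 205 and 0 reads in the limb replicates and 93 in body over 1 fragment, where a count of 0 allows up to 3 reads. Replicate 2 was the deeper limb library and had no read in any pair of En2 with another gene. Whether this fragment could be read in that library was not tested, so the 0 is not taken as low contact.

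**Figure D5:**
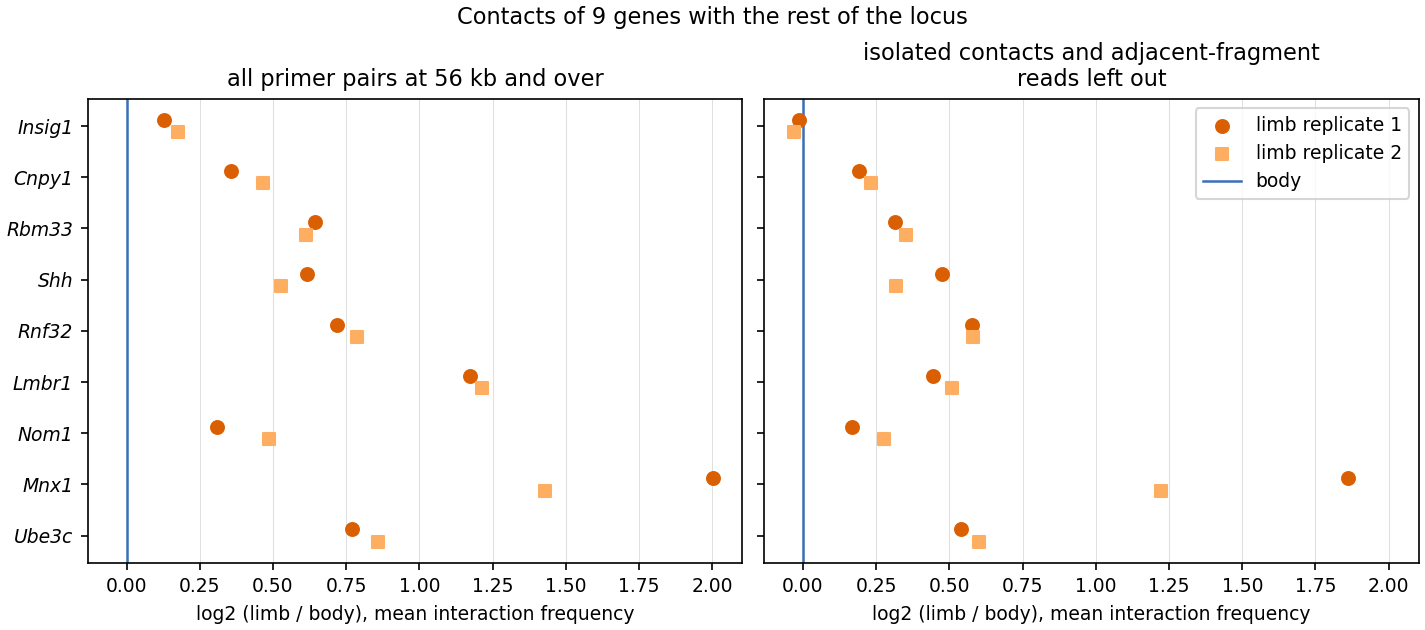
Log2 ratio of each limb replicate over body in mean interaction frequency with fragments at least 56 kb away, for 9 genes in order along the chromosome (En2, with 0 reads in limb replicate 2, is left out); left, all primer pairs; right, without isolated contacts and adjacent-fragment reads. Points right of the line at 0 are above body; at right the Insig1 points lie at the line or left of it.

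Pairs of genes gave the same picture with fewer reads. Of 42 pairs of genes joined by a primer pair, 39 had at least 10 reads, both limb replicates were above body in 30 of them and below in 1, and 8 were at least 2-fold higher in both. Over all 1881 window pairs the shares were 58.9% above in both, 15.9% below in both and, as above, 12.8% at least 2-fold higher. With isolated contacts and adjacent pairs out, 25 were above, 1 was below and 3 were at least 2-fold higher. Over all 1878 window pairs in that setting the shares were 49.6%, 22.6% and 8.41%, so the last count was near the share over all pairs. Shh and Lmbr1, over 35 primer pairs, had 0.0361, 0.0335 and 0.0225. Shh and Ube3c, over 28, had 0.00624, 0.0135 and 0.00216, from 118, 648 and 64 reads. Shh and Rnf32 had 0.0179, 0.0133 and 0.0106, and Shh and Rbm33 0.0173, 0.0223 and 0.0129. Shh and Cnpy1 differed less, at 0.0105, 0.0102 and 0.00893. The replicates fell on either side of body for Shh and Nom1 (0.0186, 0.0122 and 0.0141). The single pair below body in both was Shh and Mnx1, with 4, 3 and 7 reads. Lmbr1 and Mnx1, over 18 primer pairs that do not include the isolated contact, had 0.00994, 0.00826 and 0.00184.

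The 5 window pairs that rose most, taken 2 or more windows apart with isolated contacts left out and at least 50 reads in each limb replicate, spanned 588 to 1008 kb. The first joined a window with Insig1 to the gene desert (chr5:28373087-28401086 and chr5:29381087-29409086), with 353 and 678 reads in limb and 35 in body, a log2 fold change of 3.41 and an adjusted p of 0.00419 in edgeR's test. One of its 6 primer pairs held 341, 586 and 25 of those reads. The other 4 joined gene desert windows to windows beyond it, 2 of them with Ube3c and 1 with Lmbr1, had 9 to 18 reads in body, and had adjusted p of 0.0981 to 0.148. The 5 that were lowest against body, with at least 50 reads there, had 57 to 145 reads in body and 0 to 33 and 27 to 95 in the limb replicates, rested on 1 to 14 primer pairs, and had adjusted p of 0.129 to 0.475.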

How the data were processed

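5C was performed by the authors on 3C libraries of limb bud and body, and the deposited values are raw read counts per primer pair, 1 primer on each of 2 HindIII fragments, with mm9 coordinates per the submitters' processing notes. Library totals were 675954, 1714491 and 1056071 reads, and PCR reads are not independent molecules, so intervals and floors cover counting error only. Counts were divided by the library total and multiplied by 1000. Fragments were placed by midpoint in 28-kb windows, and the domain edges and the Shh, SBE4 and ZRS windows follow the study's map. Genes and sequences came from GENCODE and NCBIM37, the same build. Of 354 fragments, 353 had a HindIII site at both ends.

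Block, distance and gene means were not tested and are given as values. Window pairs were tested with edgeR 4.0.16 (TMM, quasi-likelihood, common biological coefficient of variation 0.327) in R 4.3.3 with Benjamini-Hochberg adjustment, and DESeq2 1.42.0 was an alternative. Other steps ran in Python 3.11.15 with matplotlib 3.10.9, scipy 1.17.1, pandas 2.3.3 and numpy 2.4.6. Measures were tested on simulated data.

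Named items were the 10 genes, the Shh, SBE4 and ZRS pairs, the 5 window pairs most above and most below body, and isolated contacts. Other windows and the sequences were chosen after their values were seen. The comparison, lists and tests were chosen with earlier results of these data known. Head libraries were not used here. Alternatives were other denominators, windows, edges, folds, filters and statistics, and each limb replicate alone. Those without adjacent fragments or with the interchromosomal level subtracted were chosen after seeing the data.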

Additional observations from a re-analysis of the deposited data

Results flagged for a closer look

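Reads that join the Shh region of chromosome 5 to the Usp22 region, a control region on another chromosome in the same primer pool, lie outside the comparison above and stood above their level in body. They made up 1.53% of limb replicate 1 and 0.724% of limb replicate 2, against 0.0722% of body (Wilson 95% intervals of 1.5 to 1.56, 0.712 to 0.737 and 0.0672 to 0.0775, counting error only). A single primer pair, between a Usp22-region fragment and a fragment 8.52 kb from Rnf32, held 9181, 9854 and 162 of the 10325, 12421 and 762 reads. Fewer of the 1948 interchromosomal pairs had a read in limb, 110 and 139 against 240 in body. Without the 2 most-read pairs the mean interaction frequency was 0.000573 and 0.000446 in limb and 0.000287 in body. Its part in the long-range results was not tested beyond subtracting that level, given under the processing.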

How the results depend on the processing

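Values here are log2 ratios of the limb mean over body, given for 4 measures, within domains, between domains, under 56 kb, and 56 kb and over, with main values of -0.13, 0.80, -0.57 and 0.77. They were -0.15, 0.87, -0.42 and 0.62 without isolated contacts, -0.16, 0.87, -0.43 and 0.60 with balanced primer totals, -0.15, 0.56, -0.40 and 0.29 without isolated contacts and adjacent fragments, and -0.16, 0.86, -0.42 and 0.60 with the interchromosomal level subtracted. Without adjacent fragments they were -0.10 within, 0.45 between and 0.40 at 56 kb and over, and with values capped at the 99th percentile -0.32, 0.70 and 0.45. As observed over expected, within and between domains were -0.070 and 0.077. Domain edges 1 window to the left gave 0.78 between domains, and 1 window to the right -0.28 within and 1.24 between.

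With the median over primer pairs in place of the mean, directions turned: 0.43 within and -2.70 between domains, 0.18 within the domain 3′ of Shh, 0.40 within the Shh domain, -1.70, -2.70 and -2.70 in the 3 kinds of pairs between domains, 0.11 under 56 kb, -2.28 at 16 to 32 window lengths of 28 kb, -2.70 at 32 lengths and over, -0.70 for Cnpy1, -2.11 for Nom1, -1.70 for Ube3c, and -0.82 for Shh and Ube3c. The median at 56 kb and over kept its direction at 0.31. Medians between domains lay under the bound of 3 reads, so the sizes of those ratios are uncertain. As observed over expected, the sign turned between the outer domains (-0.047), for Insig1 (-0.31), Cnpy1 (-0.029), Rbm33 (-0.032), Shh (-0.067) and Nom1 (-0.23), and for Shh with Insig1 (-2.15), Cnpy1 (-0.28), Rnf32 (-0.16) and Lmbr1 (-0.033). Without adjacent fragments it turned at 4 to 8 lengths (-0.033), for Insig1 (-0.22) and for Shh with Insig1 (-0.0097) and Cnpy1 (-0.16), and without isolated contacts as well for Insig1 (-0.022). The cause was not tested.

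Window pairs at least 2-fold higher and lower numbered 964 and 214 in 14-kb windows, 58 and 1 in 56-kb windows, 517 and 71 at 1.5-fold, 83 and 6 at 3-fold, 86 and 85 as observed over expected, and 117 and 40 without adjacent fragments. Higher pairs were 158 without adjacent fragments and isolated contacts. Lower pairs were 15 without isolated contacts and 43 with balanced totals. With 1 limb replicate left out, which asks for 2-fold in the other alone, 390 to 438 were higher and 75 to 105 lower. edgeR called 53 window pairs on library totals and 1 of 18359 single primer pairs, where 770 had an unadjusted p under 0.05. No paired analysis was possible because body is a single library. Leaving out a limb replicate left edgeR no residual degrees of freedom. Depth limits single primer pairs: 3 reads are 0.00175 to 0.00444 in interaction frequency, above or near the long-range medians.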
